A study of Mus musculus with 4 samples.

Results

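Cell cycle and DNA replication genes were described in mouse regulatory T cells that had been activated in culture with or without stimulation of the costimulatory receptor OX40. The set held 45 genes, listed by symbol, with earlier results of these data known, and divided by role into 17 regulators of G1 and of E2F, 11 replication genes and 17 mitotic genes. For 40 of the 45 a probe was named in the platform annotation, out of 16593 genes with a named probe in all, and the probe with the highest mean signal over the 4 arrays stood for each gene. Of these 40, 33 were tested. The other 7 were detected on fewer than 2 arrays, and Cdk4, Aurkb, Ccnb1, Mki67 and Tacc3 had no named probe.

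The cells carried a green fluorescent reporter of Foxp3, by which they were sorted from spleens of C57Bl/6 mice 8 to 12 weeks old. Both groups received an antibody to CD3 overnight. The isotype group also received rat IgG and the OX86 group received OX86, a rat antibody that activates OX40. There were 2 arrays in each group. The labels do not say whether the arrays of a group came from separate animals or cultures, or whether animals were pooled, so p-values reflect only array-to-array spread, part of which may be technical.

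A cell leaves quiescence when D-type cyclins, with Cdk4 or Cdk6, and cyclin E, with Cdk2, phosphorylate the retinoblastoma family. E2F transcription factors are thereby released and induce genes of DNA synthesis. The Mcm helicase is loaded on origins by Cdc6 and Cdt1 in G1 and activated in S phase, and Cdk1 with A-type and B-type cyclins then drives mitosis. Regulatory T cells can divide after activation through CD3 with costimulation under some conditions, and the arrays do not measure whether these cells divided.

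No cell cycle gene passed the test of OX86 against isotype, as was true of 0% of the 13338 tested probes (limma, Benjamini-Hochberg adjusted p, smallest value 0.9999). Without adjustment, 444 probes had p under 0.05 in limma. Among the 33 tested genes, E2f1 and Birc5 were higher with OX86 at that level, against 1.73% of all tested probes, and 0 were lower, against 1.6%. The mean signal was higher with OX86 for 24 of the 33 and lower for 9, where 51.0% of all tested probes were higher. The median log2 change, OX86 minus isotype, was 0.08 over the 33 genes and 0.01 over all tested probes. Since a gene could enter by being detected on both arrays of only the brighter group, the 28 genes detected on all 4 arrays were counted too, and 20 were higher and 8 lower. In these bulk samples, a change in the share of dividing cells and a change in transcript per cell cannot be told apart.

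The groups did not overlap for 7 genes that were higher with OX86 (E2f1, E2f3, Cdk6, Cdkn2c, Mcm2, Mcm5 and Birc5), against 13.9% of tested probes, and for 3 that were lower (Ccnd1, Cdk1 and Kif11), against 13.1%. The 7 genes made up 21.2% of the 33. The counts changed with the arrays used: without isotype 2 or without OX86 1, 19 of the 33 were higher and 14 lower. Without isotype 1 the split was 22 to 11, and without OX86 2 it was 24 to 9. When arrays were scaled to their medians in place of quantile normalization, all tested probes shifted to a median of 0.12 with 71.1% higher, and the cell cycle genes to a median of 0.21 with 28 higher and 5 lower.

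**Figure D1:**
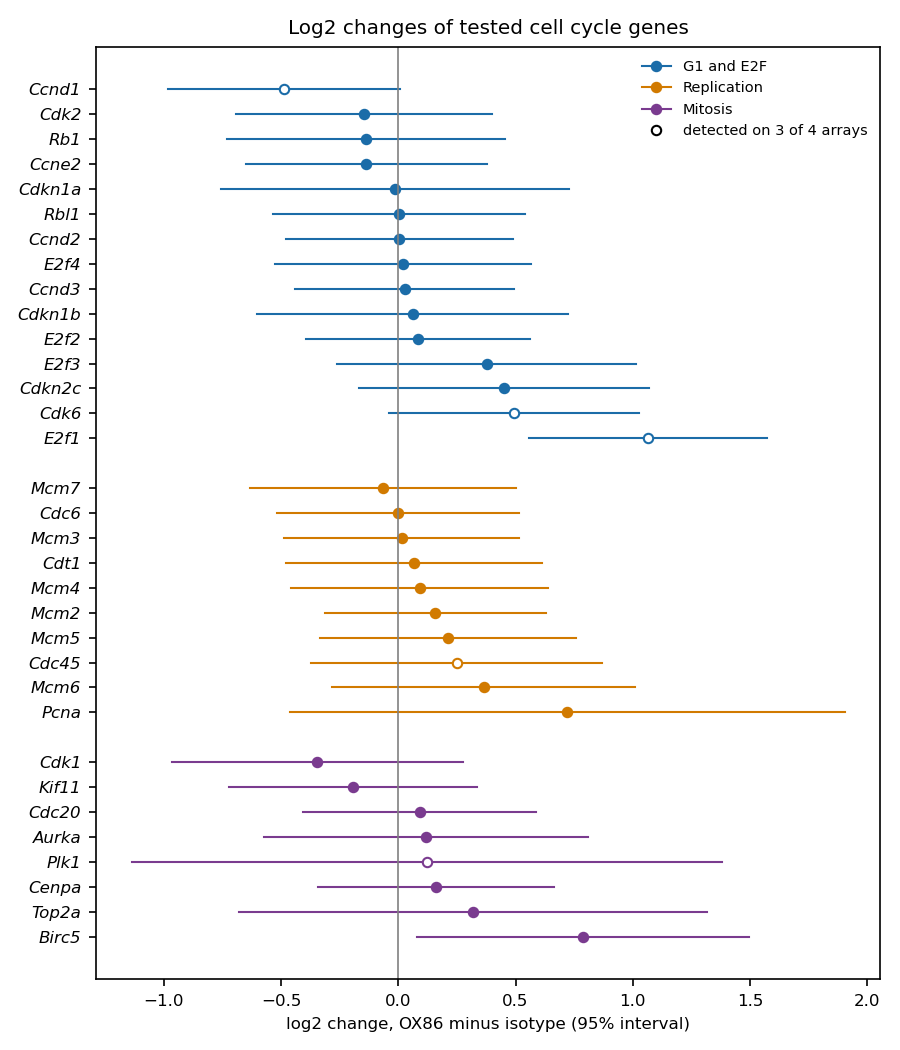
Log2 change (OX86 minus isotype, horizontal axis) of each of the 33 tested genes with its 95% interval from limma, coloured by role. Filled points were detected on all 4 arrays and open points on 3, and the intervals of E2f1 and Birc5 alone lie wholly above 0.

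Detection and signal differed between the arrays. In the order isotype 1, isotype 2, OX86 1, OX86 2, detected probes (detection p under 0.05) made up 53.2%, 45.9%, 50.2% and 50.6%, with median deposited signals of 324.7, 296.4, 316.0 and 321.8. Isotype 2 stood apart, with correlations of 0.968 to 0.972 with the other arrays, which among themselves correlated at 0.981 to 0.985 across probes. All 8 listed marker genes of T cells and regulatory T cells were detected on every array, and Foxp3 had normalized log2 signals of 12.75, 12.76, 12.71 and 12.95 in the same order. Of the markers of other cells, 3 of 7 B-cell genes, 2 of 8 myeloid genes, 3 of 6 genes of NK or CD8 T cells and 3 of 7 erythroid genes were tested. Those detected on all 4 arrays were Cd79a and Cd79b of B cells, S100a8 of myeloid cells, Cd8b1, Prf1 and Eomes of NK or CD8 T cells, and Hba-a1, Epor and Tfrc of erythroid cells, of which Prf1 and Tfrc are also expressed by activated T cells. Cd8b1 read 9.57, 9.79, 9.61 and 9.54. Ms4a1, a B-cell gene detected on 3 arrays, read 5.79, 5.15, 6.38 and 6.18, higher on both OX86 arrays, and did not pass (unadjusted p = 0.0267 in limma). The summed log2 signal of the tested erythroid genes was 11.27 and 10.30 with isotype against 10.76 and 10.27 with OX86. That of the B-cell genes was 8.00 and 8.08 against 8.16 and 7.96, that of the myeloid genes 8.40 and 8.19 against 7.84 and 8.43, and that of the NK and CD8 genes 14.54 and 14.52 against 14.28 and 14.67. The NK and CD8 sum was mostly Prf1, which alone read 14.48 and 14.46 with isotype against 14.21 and 14.61 with OX86. Pax5, Itgam, Itgax, Cd8a, Ncr1, Klrb1c, Alas2 and Klf1 were detected on 0 arrays, so the lists held both detected and undetected markers, and the part of other cells in the cell cycle values was not tested.

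Values below are normalized log2 signals, given in the order isotype 1, isotype 2, OX86 1, OX86 2. They compare arrays for one probe, and levels of different genes cannot be compared on this scale. The promoter sequences are 300-base windows around the annotated start site, from RefSeq on build GRCm38.p6, available for 36 of the 45 genes. They were searched on both strands for the E2F words TTTCGCGC and TTTGGCGC, for TTTGAA (the cell cycle homology region, known from promoters of mitotic genes) and for CCAAT, the box bound by NF-Y. An E2F word was present in 5 of 10 promoters of replication genes, 2 of 17 of G1 and E2F regulators and 1 of 15 of mitotic genes, where 0.813% of all 32851 promoters held one. TTTGAA was present in 11 of 15 mitotic promoters, 2 of 10 replication promoters and 2 of 17 G1 and E2F promoters, against 17.9% of all promoters. CCAAT was present in 13 of 15, 8 of 10 and 7 of 17 in the same order, against 37.4%. Some genes have more than 1 promoter, and the full table also covers genes that encode no protein. The window of E2f1 lies around a start inside the gene. A match is a description of letters and not of binding.

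E2f1, the E2F factor classed as an activator of S-phase genes, had the largest change of the set. Its values were 5.98, 5.71, 6.87 and 6.95, so both OX86 arrays lay above both isotype arrays. The log2 change was 1.07 (95% interval 0.56 to 1.57, unadjusted p = 0.00234 in limma), and the gene did not pass after adjustment. The level was low: deposited signals were 333.3, 292.2, 376.7 and 395.5, and the isotype 2 array was not above background. With no background correction the change was 0.27. It ran from 0.93 to 1.20 as single arrays were left out. The E2f1 window, shown because this gene had the smallest p of its role, lies at chr2:154569377-154569676 and contains none of the 4 words. Much of it reads as coding sequence of the E2f1 protein. The annotated start used is therefore an internal one, and the lack of words does not describe the gene's first promoter.
E2f1: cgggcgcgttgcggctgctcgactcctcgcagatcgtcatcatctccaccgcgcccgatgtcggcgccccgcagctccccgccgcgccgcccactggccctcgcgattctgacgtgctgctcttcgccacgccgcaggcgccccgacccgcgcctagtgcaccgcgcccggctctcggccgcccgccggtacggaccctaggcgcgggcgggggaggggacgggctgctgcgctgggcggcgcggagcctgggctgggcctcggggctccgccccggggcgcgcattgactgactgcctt

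The other E2F genes had smaller changes. E2f3, a further activator, read 7.16, 6.57, 7.27 and 7.20, and only isotype 2 was clearly below the rest. Its log2 change of 0.38 (-0.26 to 1.02) was 0.08 without isotype 2. E2f2 differed by 0.08 (-0.40 to 0.56) at its brightest probe and by -0.39 at its other tested probe. E2f4, a repressor in resting cells, had values of 8.72, 8.83, 8.61 and 8.98 with a change of 0.02 (-0.53 to 0.56). The pocket protein genes, whose products hold E2F factors inactive, had intervals on both sides of 0: Rb1 had a change of -0.14 (-0.73 to 0.46) and Rbl1 one of 0.00 (-0.53 to 0.54).

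Among the cyclins of G1, Ccnd1 was the one whose groups did not overlap. It read 6.39, 6.42, 6.03 and 5.80, lower on both OX86 arrays, and OX86 2 was below detection. The log2 change was -0.49 (95% interval -0.98 to 0.01). It ran from -0.60 to -0.37 as single arrays were left out, and was -0.11 with no background correction. The other Ccnd1 probes were each detected on 1 array and were not tested. At these signals near background, their means were higher with OX86, by 0.42 and 0.07, opposite to the brightest probe. The D-type cyclin genes Ccnd2 and Ccnd3, both detected on every array, differed by 0.00 (-0.48 to 0.49) and 0.03 (-0.44 to 0.49). Ccnd2 read 12.20, 12.16, 12.27 and 12.09, so the span over all 4 arrays was small and the groups overlapped. A second Ccnd3 probe had -0.50. Of the cyclin E genes, Ccne2 had a change of -0.14 (-0.65 to 0.38), and Ccne1 was detected on 0 arrays.

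The kinases and their inhibitors had changes of both signs. Cdk6, a partner of the D-type cyclins, read 5.76, 5.41, 6.10 and 6.04, higher on both OX86 arrays, with a log2 change of 0.49 (-0.04 to 1.02). The isotype 2 array, with a deposited signal of 280.9, did not detect Cdk6, and the change was 0.11 with no background correction. Cdk2, the partner of cyclin E, had -0.15 (-0.69 to 0.40), and its 4 tested probes ran from -0.22 to 0.11. The inhibitor gene Cdkn2c, whose product binds Cdk4 and Cdk6, read 8.04, 8.51, 8.58 and 8.87, a change of 0.45 (-0.17 to 1.07), and its other tested probe had -0.10. OX86 1 lay only slightly above isotype 2 for Cdkn2c, so the separation of the groups was narrow. Cdkn1a and Cdkn1b, inhibitors of Cdk2 complexes, had -0.01 (-0.76 to 0.73) and 0.06 (-0.60 to 0.72), with overlapping groups. Over the 15 tested regulators 10 were higher and 5 lower, and the median log2 change was 0.02. Without isotype 2 or without OX86 1 the split was 8 to 7, without either other array it was 11 to 4, and the median ran from 0.034 to 0.091.

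Replication genes were higher in mean with OX86 for 8 of 10 tested, with a median log2 change of 0.12, and 0 passed. Without isotype 2 or without OX86 1 the split was 5 to 5, with a median of -0.0045 in the latter case, and without OX86 2 it was 10 to 0. Of the Mcm helicase genes, Mcm2 read 8.41, 8.43, 8.52 and 8.63, a difference of 0.16 (95% interval -0.31 to 0.63). Mcm5 read 9.89, 9.89, 10.30 and 9.91, so OX86 1 alone stood above the others, and its change of 0.21 (-0.34 to 0.76) was 0.02 without that array. Mcm6 had 11.75, 11.24, 11.69 and 12.02, with a change of 0.36 (-0.28 to 1.01) and overlapping groups. That change was 0.107 without isotype 2 and 0.619 without isotype 1. The 4 tested Mcm6 probes had changes above 0, from 0.16 to 0.36. Mcm4 had 0.09 (-0.46 to 0.64), Mcm3 0.01 (-0.49 to 0.51) and Mcm7 -0.07 (-0.63 to 0.50). The Mcm6 promoter, at chr1:128359656-128359955, is shown because it held the most E2F words of the replication genes, a choice made after the matches were counted. Capitals mark 3 E2F words, of which a pair overlap, and 2 CCAAT boxes read on the reverse strand.
Mcm6: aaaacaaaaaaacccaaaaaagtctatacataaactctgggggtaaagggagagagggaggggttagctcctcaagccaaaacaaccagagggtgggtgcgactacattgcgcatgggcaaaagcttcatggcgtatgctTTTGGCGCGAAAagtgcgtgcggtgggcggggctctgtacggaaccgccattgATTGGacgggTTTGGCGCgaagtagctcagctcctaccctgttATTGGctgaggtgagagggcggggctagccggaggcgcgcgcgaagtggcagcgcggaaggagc

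Pcna, the sliding clamp of DNA polymerase, had the widest spread of the replication genes. It read 8.34, 6.90, 8.50 and 8.18, and isotype 2 stood far below the other 3 arrays. The log2 change was 0.72 (-0.46 to 1.90), and without isotype 2 it was -0.0024. Cdc45, a part of the active helicase, likewise was lowest on isotype 2, at 6.13, 5.57, 6.15 and 6.05, where it was not detected. Its change of 0.25 (-0.37 to 0.87) was -0.03 without that array. The loading factors Cdc6 and Cdt1 had -0.00 (-0.52 to 0.52) and 0.07 (-0.48 to 0.61). Gmnn, which encodes the inhibitor of Cdt1, was detected on 0 arrays.

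Mitotic genes were the least often measured. Of 13 with a probe, 8 were tested, 6 of them higher and 2 lower in mean with OX86, with a median log2 change of 0.12. The split turned to 3 higher and 5 lower without isotype 1, with a median of -0.155, and without OX86 2, with a median of -0.039. Ccna2, Ccnb2, Bub1b and Ube2c were detected on 0 arrays and Bub1 on isotype 1 only, so the A-type and B-type cyclins gave no tested value. Birc5, which encodes survivin of the chromosomal passenger complex, read 6.12, 6.77, 7.08 and 7.40. Both OX86 arrays were above both isotype arrays, and the change was 0.79 (95% interval 0.08 to 1.497, unadjusted p = 0.0345 in limma), which did not pass. It was 0.463 without isotype 1 and 1.12 without isotype 2. Its other tested probes had 0.64 and 0.10, and the brightest had 0.24 with no background correction. The Birc5 promoter, at chr11:117848987-117849286, is shown as that of the mitotic gene with the smallest p and holds none of the 4 words.
Birc5: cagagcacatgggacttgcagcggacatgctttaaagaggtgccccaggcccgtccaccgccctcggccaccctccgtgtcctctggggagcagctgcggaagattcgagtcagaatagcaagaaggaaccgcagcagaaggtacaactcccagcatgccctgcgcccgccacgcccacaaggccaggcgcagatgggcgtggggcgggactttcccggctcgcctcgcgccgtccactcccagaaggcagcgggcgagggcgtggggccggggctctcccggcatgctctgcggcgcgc

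Cdk1, the mitotic kinase, read 7.71, 7.65, 7.05 and 7.61, lower on OX86 1 and close to isotype on OX86 2. Its log2 change was -0.35 (-0.96 to 0.27), against 0.14 at its other tested probe, and -0.07 without OX86 1. Kif11, the spindle motor gene, had 6.42, 6.38, 6.04 and 6.38, and the separation from isotype again rested on OX86 1, with a change of -0.19 (-0.72 to 0.34) that was -0.02 without that array. The centromeric histone gene Cenpa had 0.16 (-0.34 to 0.66). Cdc20, an activator of the anaphase-promoting complex, had 0.09 (-0.41 to 0.59), with other tested probes at -0.44 and 0.46.

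Top2a, Plk1 and Aurka differed more between the arrays of a group than between the groups. Top2a, the topoisomerase that untangles sister chromatids, read 6.65, 7.56, 7.03 and 7.82. Plk1, a kinase of mitotic entry, read 5.32, 6.78, 5.85 and 6.49, with isotype 1 below detection. Aurka, a kinase of the spindle poles, read 6.59, 7.26, 6.94 and 7.15. In each of them the array numbered 2 was above the array numbered 1 in both groups, and the changes were 0.32 (-0.68 to 1.32), 0.12 (-1.14 to 1.38) and 0.12 (-0.57 to 0.81). Relative to each gene's mean, the median of the 8 mitotic genes was -0.19 and 0.11 with isotype against -0.14 and 0.15 with OX86, array 1 first. The replication genes had the opposite order, 0.09 and -0.15 with isotype against 0.15 and -0.05 with OX86. For the G1 and E2F genes these medians were 0.02, -0.02, 0.08 and 0.03. The Top2a promoter, at chr11:99024140-99024439, was chosen for its matches after they were counted, to set beside that of Mcm6. Capitals mark TTTGAA, found once on each strand, and 6 CCAAT boxes in either direction.
Top2a: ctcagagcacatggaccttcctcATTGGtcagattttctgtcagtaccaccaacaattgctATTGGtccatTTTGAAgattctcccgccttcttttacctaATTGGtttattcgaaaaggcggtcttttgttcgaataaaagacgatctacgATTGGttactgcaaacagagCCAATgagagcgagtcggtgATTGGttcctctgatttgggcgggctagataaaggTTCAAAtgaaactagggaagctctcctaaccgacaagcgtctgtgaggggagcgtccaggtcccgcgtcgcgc

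**Figure D2:**
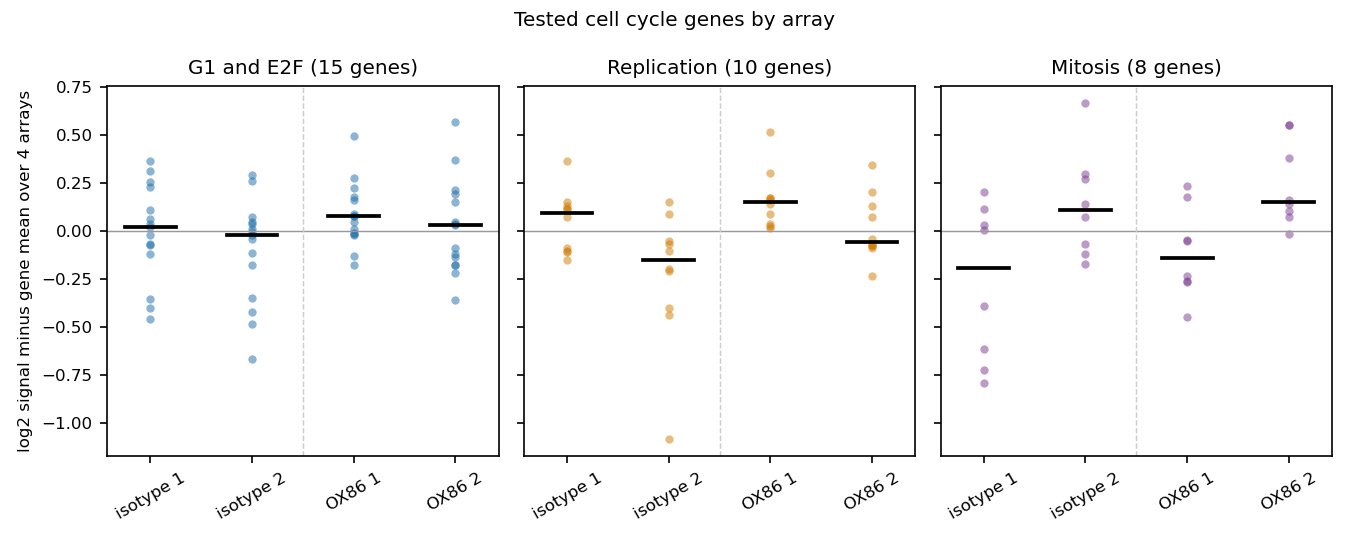
Normalized log2 signal of each tested gene minus its mean over the 4 arrays (vertical axis), by array and role, with points for genes and black bars for medians. Mitotic medians are -0.19 and -0.14 on the arrays numbered 1 and 0.11 and 0.15 on those numbered 2, while replication medians run from -0.15 on isotype 2 to 0.15 on OX86 1.

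Probes of the same gene often disagreed. Of 13 genes with more than 1 tested probe, 7 had probes of both signs: Ccnd3, Cdk2, Cdkn1a, Cdkn2c, E2f2, Cdk1 and Cdc20. Mcm6 and Birc5 had all tested probes above 0, as had Mcm4 and Cdkn1b, and both Rb1 probes and both tested Cdc6 probes were below 0. Probe sequences were not used here, so which transcripts each probe reads was not assessed.

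**Figure D3:**
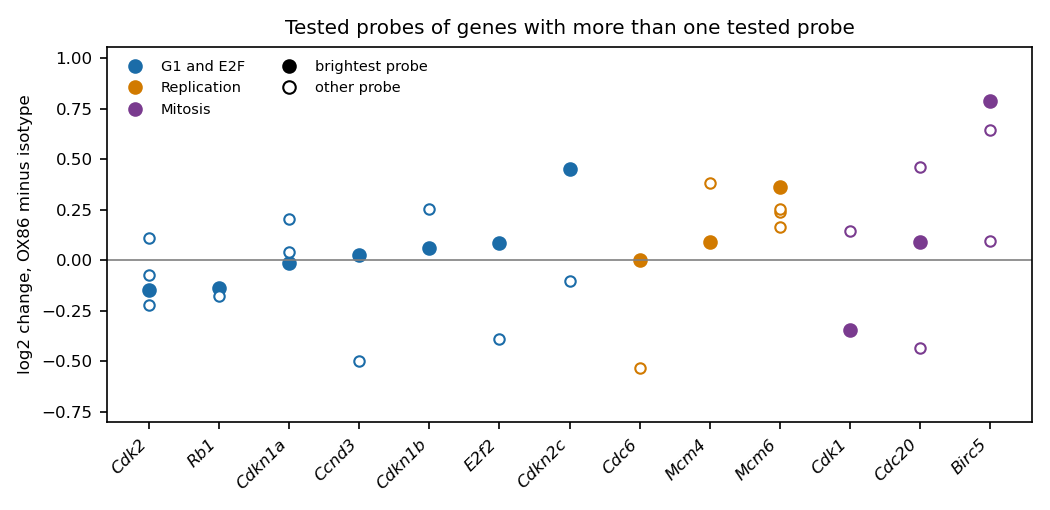
Log2 change (OX86 minus isotype, vertical axis) of every tested probe of the 13 genes with more than 1, coloured by role, with the brightest probe filled. The probes of Mcm6 lie between 0.16 and 0.36, while those of Cdc20 run from -0.44 to 0.46.

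Other genes of the pathway, taken from lists of the same roles, gave 74 tested genes of 118 listed, of which 48 were higher and 26 lower with OX86 and 0 passed. Of the 60 detected on all 4 arrays, 38 were higher and 22 lower. Replication genes outside the set were higher for 24 of 32, with a median log2 change of 0.09, and for 19 of the 27 detected on all 4 arrays. The median was 0.208 without isotype 1 and 0.205 without OX86 2, with splits of 21 to 11 and 24 to 8. Without OX86 1 it was 0.081 and without isotype 2 it was 0.072, each with a split of 20 to 12. Chaf1a, which encodes the largest subunit of a histone chaperone at replication forks, read 5.80, 5.74, 6.76 and 6.26, a change of 0.74 (95% interval 0.14 to 1.33). Its signal was near background, and isotype 2 did not detect it. The polymerase gene Pole read 6.26, 6.16, 6.69 and 7.11, a change of 0.69 (0.13 to 1.25). Both had OX86 arrays above isotype arrays, and neither passed. Tyms and Tk1, of thymidylate supply, had 0.35 (-0.11 to 0.82) and 0.36 (-0.12 to 0.83).

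Further G1 and E2F genes were higher for 9 of 13, all detected on every array, with a median of 0.10 that was 0.037 without isotype 2 and 0.184 without OX86 2. Skp2, a part of the ubiquitin ligase for Cdkn1b protein, had 0.37 (-0.13 to 0.87), and its 3 tested probes ran from -0.04 to 0.37. Cdc25a, a phosphatase that activates Cdk2, had -0.40 (-1.04 to 0.24). Other mitotic genes divided into 13 higher and 11 lower, with a median of 0.02, and the 17 detected on all 4 arrays into 9 and 8. Without isotype 2 the split was 17 to 7 with a median of 0.180, and without isotype 1 it was 12 to 12 with a median of -0.018. The spindle gene Nusap1 read 7.06, 6.59, 7.31 and 7.70, with a change of 0.68 (0.03 to 1.33). Foxm1, the factor that activates mitotic genes, had 0.50 (-0.15 to 1.16) and was not detected on isotype 2. Incenp, whose product joins survivin in the chromosomal passenger complex, had 0.37 (-0.14 to 0.89). Of 3 checkpoint genes detected on all 4 arrays, 1 was higher and 2 lower. The repair gene Brca2, detected on 1 isotype array and both OX86 arrays, had 0.74 (-0.05 to 1.53). The kinase gene Chek2 was detected on both isotype arrays and on 0 OX86 arrays, so its level with OX86 is only a bound. Against the lowest detected signal of each OX86 array, or the gene's own signal where higher, the isotype mean was 1.14-fold higher. The log2 change of Chek2 was -0.33 (-0.92 to 0.26), an interval that includes changes in both directions, and the gene did not pass. Signs of RNA handling, heat shock and immediate early genes, had a median change of 0.10 over 5 tested genes, with summed log2 signals of 14.34 and 14.27 with isotype against 14.50 and 14.32 with OX86, and their part in these values was not tested.

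**Figure D4:**
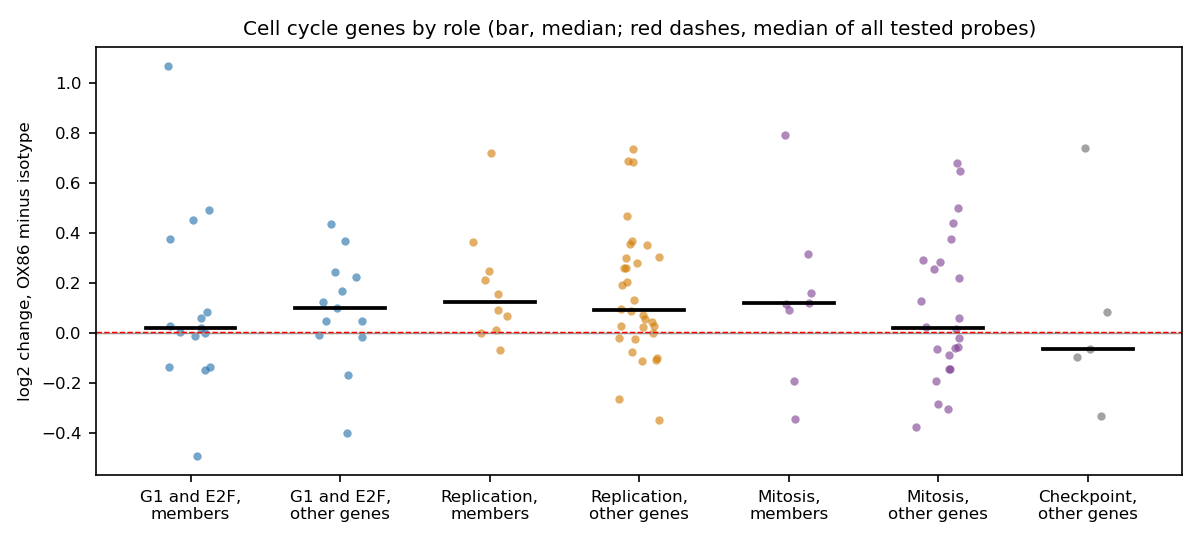
Log2 change (OX86 minus isotype, vertical axis) of tested genes of the set and of other pathway genes, by role. Points are genes, black bars are medians and red dashes mark the median of all tested probes, 0.01, and the medians run from -0.06 for checkpoint genes to 0.12 for the replication and mitotic genes of the set.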

How the data were processed

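The deposited table of probe intensity, made with BeadStudio per the submitters' processing notes (version and settings not given in the sources used here), held linear signals, none below 194.3, and a detection p-value per probe, deposited beside each signal. A second table of intensity, processed by the authors, lay within 1% of a quantile normalization for at least 99.98% of values on each array and served as an alternative. The column names of all 4 arrays share 1 number, followed by the letters A to D, which was read as 1 slide.

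Signals were corrected and quantile normalized with neqc (limma 3.58.1, R 4.3.3, offset 16, control statistics inferred from detection p-values) and taken as log2. Probes with detection p under 0.05 on at least 2 arrays were tested, 13338 of 25697. Names came from the platform annotation, which gave 23978 probes 1 symbol, 0 several and 1719 none, and 0 changed against RefSeq names. OX86 was compared with isotype by lmFit and eBayes, two-sided, with Benjamini-Hochberg adjustment over all tested probes and 95% intervals. Residual degrees of freedom were 2 and prior ones 3.68, and the median half-width of an interval was 0.56. On simulated data of 13338 probes with 200 changed, 34.6% of probes changed 2-fold and 99.0% changed 4-fold were recovered, with 12.8 false calls per draw over 10 draws. Changes of 8-fold and 16-fold were simulated too, and 100% of these were recovered. The false calls per draw were the same for every fold size, so the sizes are read as mixed within each draw. The share recovered at 2-fold may therefore be lower where few probes change strongly, as in these data, where 0 passed. The number of arrays limits the precision.

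The genes, their roles and the other lists were chosen with earlier results of these data known. For the other lists, counts without single arrays and over genes detected on all 4 arrays were added after seeing the data. Every gene of the set was named, and of each other list up to 4 with the smallest unadjusted p. Promoters to show were to be those of the gene with the smallest p in each role; that of Pcna was left out, and those of Mcm6 and Top2a were added. Arrays with the same number were not taken as paired, as their deviations from group means correlated at 0.066 across all tested probes. The medians of the mitotic genes nevertheless differed by array number in both groups.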

Additional observations from a re-analysis of the deposited data

How the results depend on the processing

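Under each of 13 alternatives 0 probes and 0 cell cycle genes passed (limma, Benjamini-Hochberg), with a smallest adjusted p of 0.327 without isotype 1 and 0.9997 or more otherwise. Between 102 probes (median scaling) and 1540 (without isotype 1) had an unadjusted p below 0.05. The replicate block gave 522 such probes against 444, with 1 residual degree of freedom. It cannot alter a log2 change in this balanced design, so the median change of the cell cycle genes stayed at 0.084. No background correction moved that median to 0.032, the authors' processed values to 0.032 and median scaling to 0.21, and median scaling moved that of G1 and E2F genes to 0.16. Leaving out single arrays gave medians of 0.042 to 0.098 for the cell cycle genes, 0.034 to 0.091 for G1 and E2F genes, -0.155 (without isotype 1) to 0.26 for mitotic genes and -0.0045 to 0.22 for replication genes. The cause of these moves was not tested.

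Of 33 genes, 12 kept the sign of their change under every alternative and 14 under every omission of an array. The sign of the 10 genes whose groups did not overlap could not turn when an array was left out. Nor could a sign turn under other detection filters, a variance trend, array weights (equal within each group) or the replicate block. Without some array, 31 of the 33 moved by over 1.5 times or turned, the exceptions being E2f1 and Ccnd1. Median scaling, which moved the median of all tested probes from 0.0051 to 0.118, put Rb1 at 0.00038, Cdkn1a at 0.10, Mcm7 at 0.052 and Cdc6 at 0.088, above 0 but below that median, so these signs follow the common shift. Averaging probes turned Ccnd3 to -0.24, Cdkn1a to 0.078 and E2f2 to -0.15. Ranges over single omissions that crossed 0 were as follows. Among regulators they were -0.087 to 0.093 for Ccnd2, -0.33 to 0.038 for Cdk2, -0.38 to 0.11 for Rb1 and -0.26 to 0.38 for Cdkn1b, -0.17 to 0.21 for E2f4, -0.18 to 0.18 for Rbl1, -0.37 to 0.34 for Cdkn1a and -0.29 to 0.012 for Ccne2. Among replication genes they were -0.070 to 0.25 for Mcm4, -0.098 to 0.23 for Cdt1, -0.0024 to 1.44 for Pcna and -0.27 to 0.14 for Mcm7, -0.083 to 0.11 for Mcm3, -0.15 to 0.15 for Cdc6 and -0.028 to 0.53 for Cdc45. Among mitotic genes they were -0.0048 to 0.19 for Cdc20, -0.14 to 0.77 for Top2a, -0.22 to 0.45 for Aurka and -0.61 to 0.85 for Plk1. Ranges that did not cross 0 but moved by over 1.5 times included 0.318 to 0.667 for Cdk6, 0.216 to 0.685 for Cdkn2c, 0.0043 to 0.163 for E2f2, 0.0031 to 0.050 for Ccnd3, 0.104 to 0.211 for Mcm2 and 0.065 to 0.257 for Cenpa. Where an array is left out, the lone array of its group is assumed to vary like the others. Signals near background limit E2f1, Cdk6, Ccnd1, Cdc45 and Plk1, each detected on 3 arrays.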
